A study of Mus musculus with 46 samples.

Results

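Border-associated macrophages are the resident macrophages of the meninges, the perivascular spaces and the choroid plexus. They share with microglia a dependence on signalling through the CSF1 receptor, and they are set apart from microglia by scavenger receptors, lectins and other genes of tissue macrophages. The genes followed here were the 8 markers *Mrc1*, *Cd163*, *Pf4*, *Ms4a7*, *F13a1*, *Cbr2*, *Cd209a* and *Dab2*, taken by gene symbol from the FPKM tables, out of 21231 genes listed in at least 1 of these tables. FPKM is a read count scaled to the length of the gene and to the depth of the library. *Mrc1* encodes the mannose receptor CD206 and *Cd163* the haemoglobin-haptoglobin scavenger receptor. *Cd209a* encodes a C-type lectin of the DC-SIGN family that is also expressed by dendritic cells. *Dab2* encodes a clathrin adaptor used in endocytosis, *Pf4* a chemokine that is abundant in platelets, *F13a1* the A subunit of coagulation factor XIII that is shared with monocytes, *Cbr2* a carbonyl reductase, and *Ms4a7* a membrane protein with several transmembrane segments.

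The 46 libraries came from male C57BL/6 mice, 2 months old at the start, and made up 3 experiments with separately normalised tables. In the first, the wall of the lateral ventricle (subventricular zone, SVZ) was dissected from mice on control chow (ControlSVZ), after 14 days of the CSF1R inhibitor PLX3397 in chow (ElimSVZ), or after 14 days of PLX3397 and 5 days of recovery on control chow (RepopSVZ), with n = 5 libraries each. In the second, CD11b+CD45int cells were sorted from whole hemispheres of control mice (ControlAltRepop) or of mice given 14 days of PLX3397 and 28 days of recovery (AltRepop), the regimen the study calls white matter (WM) repopulation. These cells were taken without lipopolysaccharide (LPS, a bacterial cell wall component that provokes inflammation) at 0 hr, or 6 hr or 24 hr after LPS at 0.33 mg/kg. The controls had n = 3 libraries at 0 hr, n = 5 at 6 hr and n = 4 at 24 hr, and WM repopulation had n = 4 at each time. In the third, the same gate was sorted from control mice (ControlRegularRepop28d, n = 4) or after 7 days of PLX3397 and 28 days of recovery (RegularRepop, n = 3), the study's GLOBAL repopulation. PLX3397 given in chow is not targeted to a cell type. The gate was drawn for microglia, and border-associated macrophages are known for higher CD45, so the sorted libraries hold such cells only as far as the gate let them in.

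Depth, recovered as whole reads from the FPKM values, ran from 8076984 to 12103212 reads per library in the SVZ, from 4948657 to 11024540 reads in the WM experiment and from 4125540 to 6571223 reads in the GLOBAL experiment. 1 control SVZ library, replicate 1, stood apart with a summed level of the choroid plexus epithelium list of 21823 FPKM, against 26.5 to 132 FPKM in the other controls. The homeostatic microglia list summed to 22470 to 26212 FPKM in control cells and 21385 to 25404 FPKM in WM repopulation cells at 0 hr. In 1 GLOBAL control library the neutrophil list reached 23181 FPKM, where the homeostatic microglia list was at 13619 to 16750 FPKM over that group. In all comparisons a gene was called at an adjusted p under 0.05 by limma on log2(FPKM + 1), with adjustment over all genes that reached 1 FPKM in at least 3 libraries of the table. All fold changes are on this scale, which understates the change of low genes.

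The 8 members lie on separate chromosomes. In the mouse build GRCm38.p6 (mm10), *Mrc1* spans chr2:14229414-14332023, *Pf4* chr5:90772435-90773383, *Cd163* chr6:124304636-124330529 and *Dab2* chr15:6299788-6440715, all on the plus strand. On the minus strand lie *Cd209a* at chr8:3743395-3748984, *Cbr2* at chr11:120729485-120732025, *F13a1* at chr13:36867178-37050244 and *Ms4a7* at chr19:11321039-11336146. The promoters of the 6 members that passed the test in control cells 6 hr after LPS are shown because they moved in opposite directions, *Mrc1*, *Pf4*, *Ms4a7* and *Cd209a* lower and *F13a1* and *Dab2* higher. Each run holds the 250 bases before the transcription start, 5′ to 3′ on the gene's strand, from RefSeq on GRCm38.p6. Capitals mark GGAAGT or its reverse complement, the core of the site of PU.1, a lineage factor of macrophages and microglia, and TGCTGA or its reverse complement, a part of the recognition element of MAF factors. Both strands were searched.
Mrc1: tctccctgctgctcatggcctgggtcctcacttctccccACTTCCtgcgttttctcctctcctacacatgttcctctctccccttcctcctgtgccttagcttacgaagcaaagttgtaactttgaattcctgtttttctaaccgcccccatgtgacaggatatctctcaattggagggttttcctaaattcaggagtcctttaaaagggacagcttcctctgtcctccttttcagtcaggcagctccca
Pf4: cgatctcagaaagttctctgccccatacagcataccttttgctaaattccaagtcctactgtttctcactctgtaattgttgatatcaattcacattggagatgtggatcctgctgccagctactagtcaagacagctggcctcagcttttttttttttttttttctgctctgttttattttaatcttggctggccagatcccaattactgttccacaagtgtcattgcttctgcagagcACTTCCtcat
Ms4a7: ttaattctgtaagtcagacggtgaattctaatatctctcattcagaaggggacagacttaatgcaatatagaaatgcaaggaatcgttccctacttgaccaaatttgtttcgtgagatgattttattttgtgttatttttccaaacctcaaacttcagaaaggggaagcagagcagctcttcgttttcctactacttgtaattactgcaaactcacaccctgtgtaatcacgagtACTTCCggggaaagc
Cd209a: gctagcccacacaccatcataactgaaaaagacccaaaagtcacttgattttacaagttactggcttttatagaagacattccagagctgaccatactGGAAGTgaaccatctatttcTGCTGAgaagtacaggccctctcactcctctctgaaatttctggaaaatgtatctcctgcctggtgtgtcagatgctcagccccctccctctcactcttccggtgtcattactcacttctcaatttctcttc
F13a1: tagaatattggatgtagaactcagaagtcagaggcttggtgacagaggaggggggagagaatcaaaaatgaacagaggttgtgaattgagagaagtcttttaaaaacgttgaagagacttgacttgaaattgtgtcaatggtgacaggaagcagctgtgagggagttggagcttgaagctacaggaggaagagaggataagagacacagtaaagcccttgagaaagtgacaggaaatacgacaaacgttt
Dab2: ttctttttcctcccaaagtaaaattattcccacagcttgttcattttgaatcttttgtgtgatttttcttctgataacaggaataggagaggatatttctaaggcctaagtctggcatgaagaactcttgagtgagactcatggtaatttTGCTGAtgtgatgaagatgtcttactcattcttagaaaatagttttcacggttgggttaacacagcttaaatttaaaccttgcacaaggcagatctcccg
All 8 members matched a promoter in the RefSeq table, and the first was used where more than 1 was listed. GGAAGT stood in 4 of 8 member promoters and in 19.7% of all 32817 promoters of that length. In *Pf4* and *Ms4a7* it lay 10 and 15 bases before the start on the opposite strand, in *Mrc1* 211 bases before the start on the opposite strand, and in *Cd209a* 152 bases before the start on the same strand. TGCTGA stood in 2 of 8, *Cd209a* (132 bases before the start) and *Dab2* (100 bases), and in 16.1% of all promoters, and it does not overlap the other motif in *Cd209a*. These are matches of letters and not sites of binding, and neither motif was found in the windows of *F13a1*, *Cbr2* or *Cd163*.

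In the SVZ, the question was which transcripts are lost with PLX3397 and which return by 5 days of recovery. The members split: *Mrc1*, *F13a1*, *Cbr2* and *Pf4* had mean levels of 2.38% to 16.3% of control after 14 day PLX3397, whereas *Cd163* did not differ from control beyond the spread and the control mean of *Dab2* was set by 1 library. Of the 8 members, 6 were listed in this table (*Ms4a7* and *Cd209a* were not) and 4 of these passed the limit of 1 FPKM (*Cd163*, *Pf4*, *Cbr2* and *Dab2*). *Mrc1* and *F13a1* stayed under it and were tested in a fit without the limit. Since whole tissue was sequenced, fewer cells of a type and less RNA per cell cannot be told apart.

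*Mrc1* was at 0.730, 0.576, 0.659, 0.584 and 0.533 FPKM in the 5 control libraries, which is 27 to 42 reads each. After 14 day PLX3397 it was at 0.0209, 0, 0.0183, 0 and 0.0341 FPKM, which is 4 reads over all 5 libraries. After 5 day recovery it was at 0.105, 0.0685, 0, 0.0389 and 0 FPKM, which is 11 reads in all. All 10 libraries of both groups lay below every control library, and 9 of them held 3 reads or fewer (3 reads are worth 0.0512 to 0.0628 FPKM in the PLX3397 group). Mean *Mrc1* was 0.616 ± 0.0781 FPKM in control (SD, n = 5), 2.38% ± 2.38 of this after PLX3397 and 6.88% ± 7.34 after recovery. In the limma fit without the limit it was lower in both (log2 fold change -0.67, SE 0.06, adjusted p = 9.65e-07; and -0.63, adjusted p = 2.63e-06), and PLX3397 and recovery did not differ beyond the spread (0.04, adjusted p = 0.797).

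*F13a1* was at 0.3297, 0.557, 0.425, 0.703 and 0.482 FPKM in control libraries, at 0.0283, 0.0480, 0, 0.0266 and 0.0462 FPKM after PLX3397, and at 0.237, 0.155, 0.263, 0.237 and 0.161 FPKM after recovery. The 3 groups did not overlap, with recovery in between at 42.2% ± 9.86 of control against 5.98% ± 3.88 after PLX3397. Without the limit, *F13a1* was lower than control after PLX3397 (-0.54, SE 0.07, adjusted p = 0.000102) and after recovery (-0.30, adjusted p = 0.0326). The rise from PLX3397 to recovery was 0.23 on the log2 scale and did not pass (adjusted p = 0.180). On log2(FPKM + 0.1), which compresses low values less, that rise passed (1.26, adjusted p = 0.0166). The difference from control was -0.93 on that scale and did not pass (adjusted p = 0.0514), so which of the 2 was called depended on the pseudocount. The call after recovery was also lost with quantile normalisation (-0.26, adjusted p = 0.116), with only the groups compared (-0.30, 0.178) and with the replicate number as a block (-0.30, 0.0756). It was lost in 7 of 10 fits that left out 1 library, where the fold change ran from -0.35 to -0.26. With all listed genes in the fit, 4 of the 6 listed members were called after PLX3397 (*Mrc1*, *F13a1*, *Cbr2* and *Pf4*), where 1.49% of genes were, and 2 of 6 after recovery (*Mrc1* and *F13a1*), where 1.52% were.

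*Cbr2* was at 1.69, 0.856, 0.817, 1.69 and 0.823 FPKM in control libraries and at 0, 0, 0.0952, 0.102 and 0.356 FPKM after PLX3397. The groups did not overlap, and *Cbr2* fell to 9.41% ± 12.4 of control (-0.95, SE 0.22, adjusted p = 0.0347). It was the 1 member called of 4 tested, against 1.26% of all genes tested in this comparison, and the 1 of 4 that lay below control with no overlap, against 1.92%. *Cbr2* passed the limit through 2 control libraries and 1 recovery library, and *Pf4* through control libraries alone, so nothing is read from these counts. After recovery *Cbr2* was at 0.364, 0, 0.450, 0 and 1.49 FPKM, with 1 library inside the control range and 2 without a read (-0.64, adjusted p = 0.189). Only 6 reads in the PLX3397 group and 62 in the controls lie behind these values. The call after PLX3397 was lost in 6 of 8 fits that left out 1 library (adjusted p up to 0.108), with fold changes of -1.03 to -0.92 over the 8. It was also lost on log2(FPKM + 0.1), where the fold change was -2.76 (adjusted p = 0.0590). Without control replicate 1 or 4, *Cbr2* fell under the limit and was not tested.

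*Pf4* was at 3.67, 1.86, 0.851, 2.93 and 0.715 FPKM in control, at 0.189, 0.160, 0, 0.356 and 0.926 FPKM after PLX3397, and at 0.948, 0.206, 0.585, 0 and 0.216 FPKM after recovery. The highest PLX3397 and the highest recovery library exceeded the 2 lowest controls. The difference did not pass the test after PLX3397 (-1.11, SE 0.27, adjusted p = 0.0622) or after recovery (-1.04, adjusted p = 0.0834), and with all listed genes in the fit it passed after PLX3397 (adjusted p = 0.0489). It also passed there when control replicate 3 or 5 or PLX3397 replicate 5 was left out (adjusted p = 0.0340, 0.0199 and 0.0332), and after recovery without control replicate 5 (adjusted p = 0.0322). Of the platelet list, 2 of 8 genes were listed in the SVZ, and their sum, 2.60 to 4.87 FPKM after PLX3397 and 2.67 to 4.24 FPKM in control, overlapped between these groups.

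*Cd163* was at 1.30, 1.41, 1.15, 0.730 and 1.80 FPKM in control, at 1.34, 1.15, 1.88, 0.722 and 1.13 FPKM after PLX3397, and at 0.786, 0.946, 1.18, 1.40 and 1.27 FPKM after recovery. The 3 groups overlapped, with means of 1.28 ± 0.390, 1.25 ± 0.421 and 1.12 ± 0.249 FPKM (SD, n = 5 each). The fold change was -0.02 (SE 0.15, adjusted p = 0.999) after PLX3397 and -0.10 (adjusted p = 0.752) after recovery. With 225 to 289 reads per group, *Cd163* had more reads behind it than *Mrc1*, which had 169 in the controls. With group means taken out, its level followed *Syndig1l* (Pearson r = 0.95), *Tmem200b* (0.93) and *Itpka* (0.93), a kinase gene of neurons, most closely. Which cells its reads came from was not tested.

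*Dab2* was at 9.09 FPKM in control replicate 1 and at 2.03, 1.84, 2.53 and 1.86 FPKM in the other controls. It was at 1.66, 1.61, 1.70, 1.99 and 1.33 FPKM after PLX3397 and at 2.77, 2.49, 2.06, 1.96 and 2.19 FPKM after recovery. Replicate 1 lay apart, and the other 4 controls overlapped both groups. *Dab2* was not called (-0.55, SE 0.26, adjusted p = 0.819 after PLX3397; -0.24, adjusted p = 0.652 after recovery), and without control replicate 1 the values were -0.20 and 0.10. In that library 7 of the 8 choroid plexus epithelium genes were listed (*Aqp1* was not), with the summed level given above, the MHC class II list summed to 55.9 FPKM against 9.30 to 15.98 FPKM in the other controls, and the meningeal fibroblast list to 90.6 FPKM against 15.7 to 21.9 FPKM. Their part in the level of *Dab2* was not tested. No member was called after recovery among the 4 tested, where 1.27% of genes were, and none was called between recovery and PLX3397, where 0.325% were. At an unadjusted p under 0.05 stood 2 of 4 members (*Pf4* and *Cbr2*) and 2346 of 14151 genes against control after recovery, and 0 of 4 members and 2338 genes between recovery and PLX3397.

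**Figure D1:**
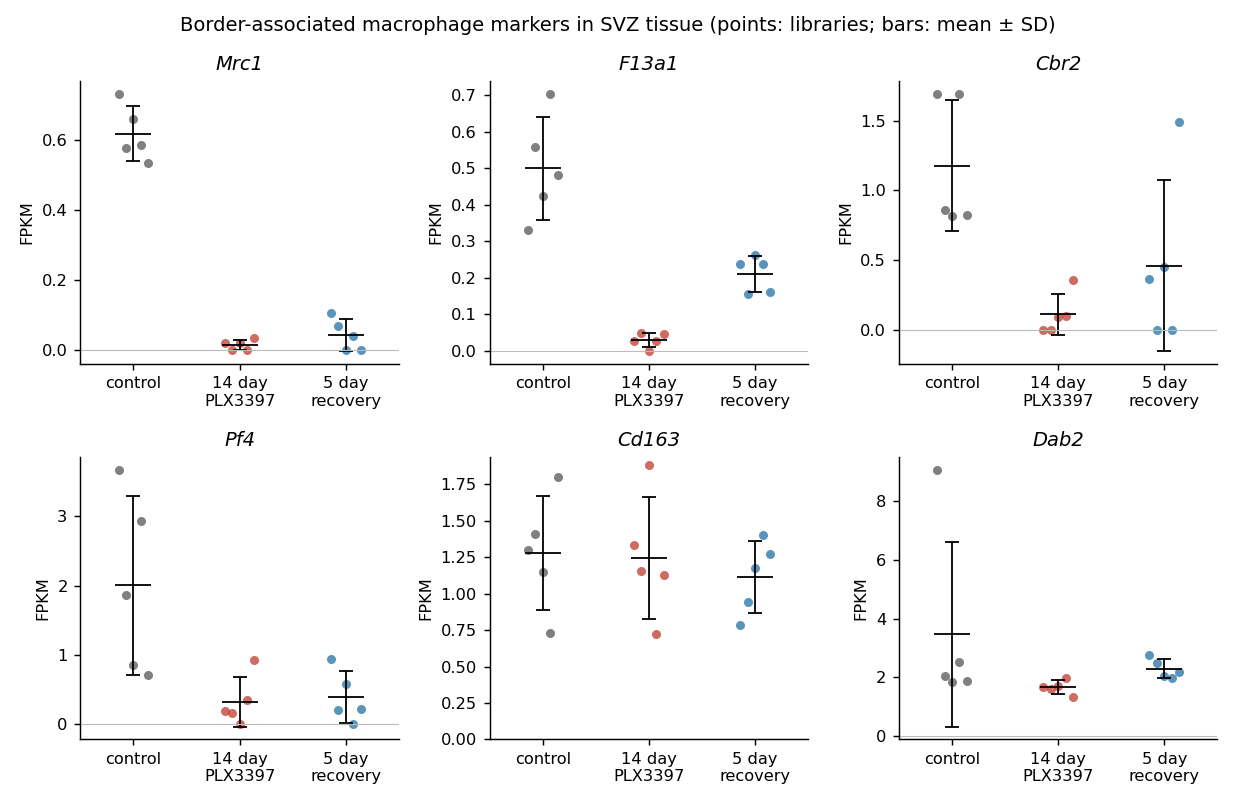
FPKM of the 6 listed members in each SVZ library (vertical axes, 1 panel a gene), for the control, elimination and repopulation groups of 5 libraries, with points for libraries and bars for mean and SD. *Mrc1* was at 0.533 to 0.730 FPKM in control and at 0 to 0.105 FPKM in both other groups, *Cd163* overlapped between the 3 groups, and *Dab2* had 1 control library at 9.09 FPKM.

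Of a list of 24 further genes of border-associated macrophages, 13 were listed in the SVZ and 9 passed the limit. Of the 9, 2 fell in both comparisons with control, where 1.26% of genes were called after PLX3397 and 1.27% after recovery. With all listed genes in the fit, 5 of the 13 were lower in each of these comparisons, where 1.49% and 1.52% were called. *Hpgd*, which breaks down prostaglandins, went from 2.94 FPKM in control to 0.332 FPKM after PLX3397 and 0.280 FPKM after recovery (-1.57, SE 0.15, adjusted p = 3.53e-06 after PLX3397). *Ms4a6d*, a relative of *Ms4a7*, went from 1.28 to 0.0427 and 0.134 FPKM (-1.12, SE 0.12, adjusted p = 8.94e-06). At these means *Ms4a6d* passed the limit through control libraries alone, and *Hpgd* could not have passed it without them. Nothing is therefore read from the count of genes that passed and fell. Both were also high in sorted control microglia at 0 hr, at 155 and 132 FPKM, in a gate drawn for microglia. Of the homeostatic microglia markers, 10 of 12 fell in both comparisons, among them *P2ry12* (-4.08 after PLX3397), a purine receptor, and *Cx3cr1* (-4.53), the fractalkine receptor. None of the 4 MHC class II genes tested was called, with a median fold change of -1.03 after PLX3397, where the list summed to 3.34 to 8.39 FPKM and lay below the controls at 9.30 to 55.9 FPKM. The monocyte list, with 3 of 8 genes listed, summed to 7.61 to 9.74 FPKM after PLX3397 and to 3.96 to 6.84 FPKM after recovery, with no overlap. The part of these lists in the levels of the members was not tested.

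In sorted cells at 0 hr, the comparison asked whether cells of WM repopulation differ from control cells 28 days after PLX3397 was withdrawn. Mean *Mrc1*, *Cd163*, *Pf4*, *Ms4a7* and *Cbr2* were lower in WM repopulation, that of *Dab2* was at 80.4% ± 19.1 and that of *F13a1* at 133% ± 52.7 of the control mean, *Cd209a* was level, and none of the 7 members tested was called, where 1.21% of genes were. Their median fold change was -0.95 on the log2 scale, against 0.01 over all genes tested. Without LPS, *Mrc1* was at 15.8, 12.4 and 5.07 FPKM in control libraries and at 4.64, 5.36, 5.10 and 3.91 FPKM after WM repopulation. The third control library lay within the WM repopulation range, and the difference did not pass (11.1 ± 5.48 against 4.75 ± 0.635 FPKM; -0.95, SE 0.30, adjusted p = 0.142). Without that control library *Mrc1* passed (-1.39, adjusted p = 0.0227), and without control replicate 1 the difference was -0.65 (adjusted p = 0.495).

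*Cbr2* was at 21.9, 5.69 and 5.19 FPKM in control cells at 0 hr and at 3.72, 3.72, 1.01 and 1.63 FPKM after WM repopulation, with no overlap (-1.58, SE 0.42, adjusted p = 0.0699). *Pf4* was at 55.9, 22.2 and 20.1 FPKM against 12.2, 18.04, 13.1 and 11.1 FPKM, also with no overlap (-1.07, SE 0.56, adjusted p = 0.463). These were 2 of 7 members with every WM repopulation library below every control library, against 6.01% of genes. *Cd163*, tested without the limit, was at 1.46, 0.841 and 0.971 FPKM against 0.151, 0.388, 0.372 and 0.257 FPKM (-0.69, SE 0.20, adjusted p = 0.112), and its groups did not overlap either. Control replicate 1 held the highest value of *Mrc1*, *Cd163*, *Pf4*, *Ms4a7*, *Cbr2* and *Cd209a* among the controls. Without it the fold change was -0.97 for *Cbr2* (adjusted p = 0.398) and -0.62 for *Pf4* (adjusted p = 0.839).

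*Ms4a7* was at 36.8, 13.1 and 7.30 FPKM in control and at 5.34, 19.1, 3.69 and 4.24 FPKM after WM repopulation at 0 hr. WM repopulation replicate 2 lay inside the control range and the other 3 below it (-1.14, SE 0.43, adjusted p = 0.238), and without replicate 2 *Ms4a7* passed (-1.61, adjusted p = 0.0399). Without control replicate 1 the difference was -0.54 (adjusted p = 0.756). *Cd209a* was at 39.4, 25.8 and 15.01 FPKM against 23.1, 42.5, 21.2 and 20.6 FPKM, with equal means of 26.7 ± 12.2 and 26.8 ± 10.5 FPKM (0.04, SE 0.51, adjusted p = 0.987). *F13a1* was at 12.8 to 23.7 FPKM against 13.96 to 34.8 FPKM and *Dab2* at 7.54 to 9.85 FPKM against 4.99 to 8.49 FPKM, with overlap and adjusted p = 0.723 and 0.750. At an unadjusted p under 0.05 stood 3 of 7 members and 1514 of 12684 genes.

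Among other markers at 0 hr, none of the 23 further border-associated macrophage genes tested was called, and their median fold change was -0.08, against 0.01 over all genes. *Cd209f*, a lectin of the same family as *Cd209a*, was lower (2.71 against 0.467 FPKM; -1.27, adjusted p = 0.0496). The summed neutrophil list at 0 hr, 1835 to 8940 FPKM in control and 2902 to 10912 FPKM in WM repopulation, overlapped between the groups. The choroid plexus epithelium list, with 8 of 8 genes listed, did not overlap (76.9 to 228 FPKM in control and 285 to 751 FPKM in WM repopulation). The endothelial cell list, with 5 of 8 genes listed, did not overlap either (8.40 to 13.8 against 3.62 to 6.93 FPKM), and 1 of its 3 genes tested, the adhesion molecule *Pecam1*, was lower (-1.54, adjusted p = 0.0259). The meningeal fibroblast list, with 5 of 8 genes listed and 1 tested, which was not called, was low and did not overlap (0.691 to 1.01 FPKM in control and 1.51 to 1.81 FPKM in WM repopulation). Their part in the levels of the members was not tested.

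**Figure D2:**
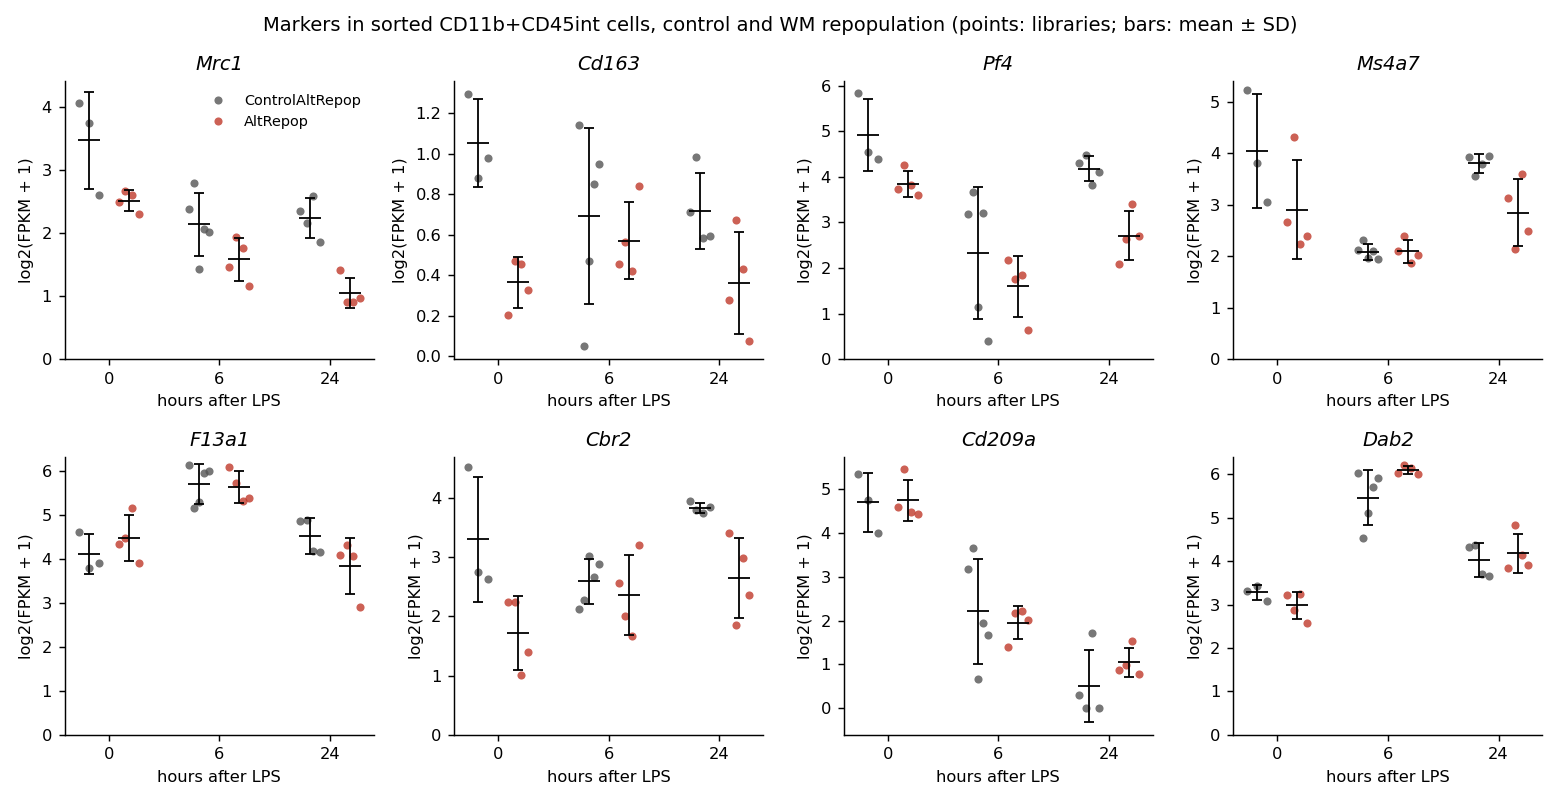
Level of the 8 members as log2(FPKM + 1) in each sorted library (vertical axes, 1 panel a gene) for control and WM repopulation cells. Groups are 0 hr, 6 hr and 24 hr after LPS (n = 3 to 5 a group), with points for libraries and bars for mean and SD on the log2 scale. *Cd209a* was at 15.01 FPKM or more in every 0 hr library and at 11.5 FPKM or less in every LPS library, and *Dab2* was at 21.98 FPKM or more in every 6 hr library against 9.85 FPKM or less at 0 hr.

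LPS moved most members, with *Mrc1*, *Pf4*, *Ms4a7* and *Cd209a* lower and *F13a1* and *Dab2* higher in control cells at 6 hr. In control cells 6 hr after LPS, 6 of the 7 members tested were called, 4 lower and 2 higher, where 42.5% of all genes were called, 21.1% lower and 21.4% higher. *Cd209a* was at 7.97, 11.5, 0.581, 2.82 and 2.19 FPKM at 6 hr, all below the lowest 0 hr library (-2.48, SE 0.49, adjusted p = 0.000251). At 24 hr it was at 0.241, 0, 2.30 and 0 FPKM, and the 32 reads of this group came almost all from replicate 3 (-4.19, SE 0.51, adjusted p = 3.45e-06). In these cells *Cd209a* thus went from a mean of 26.7 to 5.01 and 0.635 FPKM over 24 hr.

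*Pf4* was at 8.10, 11.7, 1.22, 8.30 and 0.325 FPKM in control cells at 6 hr and *Ms4a7* at 3.32, 4.003, 2.91, 3.27 and 2.85 FPKM. All of these lay below every 0 hr control (*Pf4* -2.60, SE 0.54, adjusted p = 0.000396; *Ms4a7* -1.95, SE 0.41, adjusted p = 0.000444). At 24 hr *Pf4* was back at 18.9, 21.1, 13.2 and 16.2 FPKM and *Ms4a7* at 14.2, 10.8, 12.9 and 14.5 FPKM, and neither differed from 0 hr beyond the spread (adjusted p = 0.374 and 0.750). *Mrc1* was at 4.20, 5.95, 1.70, 3.17 and 3.05 FPKM at 6 hr, with 1 library above the lowest 0 hr control (-1.33, SE 0.29, adjusted p = 0.000621). *Mrc1* remained lower at 24 hr, at 4.10, 3.48, 5.02 and 2.62 FPKM (-1.23, SE 0.30, adjusted p = 0.00482).

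*Dab2* was at 64.6, 21.98, 33.8, 51.7 and 59.7 FPKM in control cells at 6 hr, all above the 8.87, 9.85 and 7.54 FPKM of the 0 hr libraries (2.19, SE 0.28, adjusted p = 1.02e-06). At 24 hr it was at 19.2, 19.9, 12.1 and 11.6 FPKM, still above every 0 hr library but not called (0.74, adjusted p = 0.0729). *F13a1* was at 69.8, 34.6, 38.3, 61.2 and 63.5 FPKM at 6 hr against 23.7, 12.8 and 13.96 FPKM at 0 hr (1.61, SE 0.32, adjusted p = 0.000256) and at 16.9 to 28.4 FPKM at 24 hr (0.42, adjusted p = 0.402). Control replicate 2 at 6 hr held the lowest *Dab2* and *F13a1* and the highest *Cd209a*, *Pf4* and *Mrc1* of its group. That library also had a summed dendritic cell list of 610 FPKM against 6.72 to 32.6 FPKM in the others, with all 8 genes of the list in the table, and its part in these values was not tested. *Cbr2*, at 3.38 to 7.04 FPKM at 6 hr and 12.4 to 14.4 FPKM at 24 hr, was not called at either time (adjusted p = 0.168 and 0.400). At 24 hr 2 of 7 members were called, where 21.3% of genes were. *Cd163*, under the limit, was at 0.0349 to 1.21 FPKM at 6 hr and 0.497 to 0.980 FPKM at 24 hr in control cells.

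WM repopulation cells gave 5 calls of 7 at 6 hr, where 38.8% of genes were called. *Dab2* was at 64.7, 73.8, 69.6 and 63.0 FPKM against 8.31, 6.36, 8.49 and 4.99 FPKM at 0 hr (3.12, SE 0.27, adjusted p = 3.92e-09), and *F13a1* rose from 22.4 ± 8.87 to 50.1 ± 13.1 FPKM (1.17, SE 0.31, adjusted p = 0.00419). *Cd209a* was at 1.64, 3.54, 3.63 and 3.04 FPKM, below every 0 hr library (-2.78, SE 0.47, adjusted p = 5.56e-05). *Pf4* fell from 13.6 ± 3.05 to 2.24 ± 1.23 FPKM (-2.25, SE 0.52, adjusted p = 0.00131) and *Mrc1* from 4.75 ± 0.635 to 2.06 ± 0.707 FPKM (-0.93, SE 0.28, adjusted p = 0.0104). *Ms4a7*, at 2.65 to 4.27 FPKM, and *Cbr2*, at 2.16 to 8.21 FPKM, were not called (adjusted p = 0.112 and 0.207).

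At 24 hr 3 of 7 members were called in WM repopulation cells, where 18.8% of genes were. *Mrc1* was at 1.67, 0.880, 0.879 and 0.950 FPKM (-1.47, SE 0.28, adjusted p = 0.000578) and *Cd209a* at 0.844, 0.991, 1.89 and 0.729 FPKM (-3.69, SE 0.47, adjusted p = 6.66e-06), both below every 0 hr library. *Dab2* was at 13.4, 27.6, 16.5 and 14.1 FPKM, above every 0 hr library (1.2, SE 0.27, adjusted p = 0.00273). *Pf4*, *Ms4a7*, *F13a1* and *Cbr2* were not called (adjusted p = 0.134, 0.938, 0.166 and 0.103). *Cd163* was at 0.338 to 0.789 FPKM at 6 hr and 0.0535 to 0.595 FPKM at 24 hr.

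Markers of other cells moved in the same libraries. The summed monocyte list went from 120 to 370 FPKM in control cells at 0 hr to 1401 to 2643 FPKM at 6 hr and 480 to 673 FPKM at 24 hr, and in WM repopulation cells from 155 to 455 FPKM to 1345 to 3594 FPKM and 160 to 757 FPKM. All 8 of its genes were listed, and 7 were called higher at 6 hr in each, *Plac8* (4.16 in control cells) and *Vcan* (2.85) among them. The summed platelet list, with 2 of its 8 genes (*Gp1bb* and *Gp6*) not listed, was at 37.5 to 55.1 FPKM at 0 hr, 16.7 to 26.6 FPKM at 6 hr and 8.39 to 21.1 FPKM at 24 hr over both kinds of cells. Their part in the levels of *F13a1* and *Pf4* was not tested. At 24 hr the platelet list did not overlap with 0 hr in control cells (8.39 to 12.9 against 44.0 to 55.1 FPKM), where *Pf4* was not called. Of the MHC class II genes, which present antigen, 4 of 5 fell at 6 hr in both kinds of cells, *H2-Eb1* from 255 to 46.7 FPKM in control cells (-2.5, adjusted p = 2.21e-07). Of the 12 homeostatic microglia markers, 11 fell at 6 hr in both kinds of cells. Of the 6 choroid plexus epithelium genes tested, 5 fell in WM repopulation cells at 24 hr, *Ttr*, which encodes transthyretin, among them (-4.22, adjusted p = 1.13e-05), and the list summed to 12.6 to 33.4 FPKM against 285 to 751 FPKM at 0 hr. In control cells none of the 6 was called at 24 hr, and the list summed to 36.6 to 55.9 FPKM against 76.9 to 228 FPKM at 0 hr, with no overlap. Of the 8 neutrophil genes, 6 fell in WM repopulation cells and 1 in control cells at 6 hr, *Ly6g* in both (-3.02 and -2.60), and the summed list overlapped with 0 hr. The part of these lists in the responses of the members was not tested. The 23 other border-associated macrophage genes went both ways at 6 hr in control cells, with 9 higher, such as *Ms4a4a* (5.74) and *Ms4a6d* (3.30), and 10 lower, such as *Hpgd* (-3.58).

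Between WM repopulation and control cells after LPS, no member was called at 6 hr (0 of 7, where 0.323% of genes were, and 2 of 7 members and 1164 of 12684 genes at an unadjusted p under 0.05). *Dab2* came to 67.8 ± 4.89 FPKM in WM repopulation (n = 4) and 46.4 ± 17.98 FPKM in control (n = 5), with overlap (0.64, SE 0.26, adjusted p = 0.415). Among other markers at 6 hr, 1 of 23 other border-associated macrophage genes, the fatty acid scavenger receptor *Cd36*, was higher in WM repopulation (1.504, SE 0.25, adjusted p = 0.00399), and no gene of the other marker lists was called. The endothelial cell list at 6 hr did not overlap (6.08 to 7.79 FPKM in WM repopulation and 8.03 to 16.4 FPKM in control), and its part in the levels of the members was not tested. At 24 hr *Mrc1* was lower in WM repopulation cells (1.09 ± 0.383 against 3.81 ± 1.01 FPKM, n = 4 each), with the highest WM repopulation library at 1.67 FPKM and the lowest control at 2.62 FPKM (-1.19, SE 0.28, adjusted p = 0.0153). It was the 1 member called of 7, where 3.97% of genes were called, and without control replicate 3 its adjusted p was 0.0509. *Pf4* (5.89 ± 2.63 against 17.3 ± 3.43 FPKM; -1.47, SE 0.52, adjusted p = 0.118) and *Cbr2* (5.79 ± 3.05 against 13.2 ± 0.835 FPKM; -1.18, SE 0.39, adjusted p = 0.0920) did not overlap between the groups and did not pass. With *Mrc1* these were 3 of 7 members that did not overlap and lay lower, against 6.32% of genes. The median fold change of the 7 was -0.97, against 0.02 over all genes tested.

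*Cd209a* at 24 hr was at 0.729 to 1.89 FPKM in WM repopulation against 0 to 2.30 FPKM in control cells (0.54, adjusted p = 0.602). *Ms4a7* was at 6.74 ± 3.46 against 13.1 ± 1.70 FPKM (-0.97, adjusted p = 0.187), and *F13a1* and *Dab2* overlapped between the groups (adjusted p = 0.249 and 0.807). Among other markers at 24 hr, 1 of 3 other *Cd209* family genes, *Cd209f* (2.54 against 0.190 FPKM in control and WM repopulation; -1.46, SE 0.30, adjusted p = 0.00539), and 1 of 23 other border-associated macrophage genes, *Clec4n* (19.4 against 4.59 FPKM; -1.79, SE 0.26, adjusted p = 0.000371), which encodes the lectin Dectin-2, were lower. 1 of 3 endothelial genes, *Pecam1* (-1.56, adjusted p = 0.00603), 1 of 12 homeostatic microglia genes, *Fcrls* (1112 against 526.1 FPKM; -1.13, adjusted p = 0.00440), and 1 of 6 dendritic cell genes, *Xcr1* (2.10 against 0.715 FPKM; -0.85, adjusted p = 0.00892), were lower as well. Of 8 monocyte genes, 1 was higher, the fibronectin gene *Fn1* (3.37 against 13.8 FPKM; 1.86, adjusted p = 0.00177). The neutrophil list summed to 3189 to 7209 FPKM in WM repopulation and 6400 to 15307 FPKM in control cells at 24 hr, and overlapped between the groups. The choroid plexus epithelium list summed to 12.6 to 33.4 FPKM and 36.6 to 55.9 FPKM and did not overlap. Their part in these differences was not tested.

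The test of the difference itself, the LPS response in WM repopulation cells minus that in control cells, called 0 of 7 members at 6 hr, where 0.0237% of genes were called, and 0 of 7 at 24 hr, where 0.0867% were. The differences ran from -0.44 to 1.34 at 6 hr (adjusted p = 0.648 to 0.943) and from -1.05 to 0.50 at 24 hr (adjusted p = 0.499 to 0.967), with 2 and 1 of 7 members and 913 and 1105 of 12684 genes at an unadjusted p under 0.05. A difference in response between WM repopulation and control cells was therefore not detected for any member tested, and the LPS comparisons share the 0 hr libraries.

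**Figure D3:**
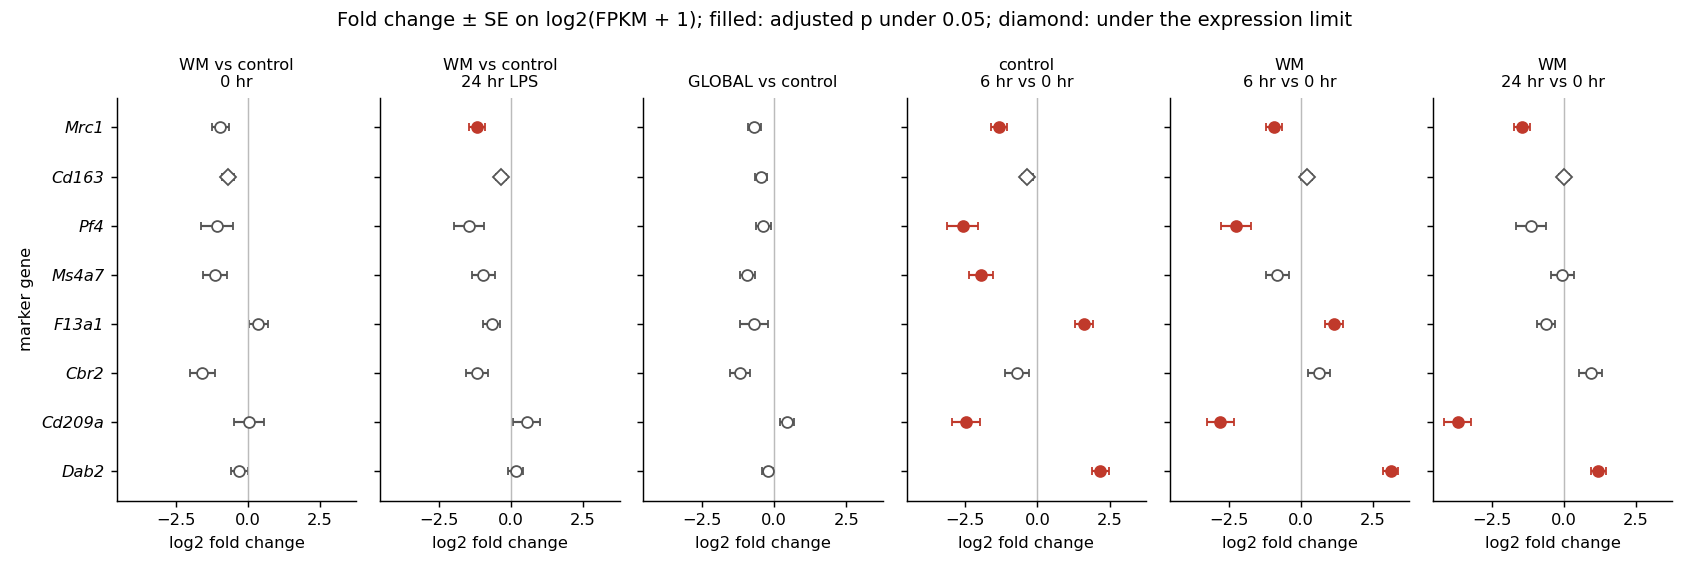
Log2 fold change of each member on log2(FPKM + 1) with its standard error (horizontal axes) in 6 comparisons of sorted cells, filled where adjusted p was under 0.05, with a diamond for *Cd163* where it was under the expression limit. *Mrc1* was called in WM repopulation at 24 hr (-1.19), *Dab2* was called higher at 6 hr of LPS in both kinds of cells (2.19 and 3.12), and no member was called in GLOBAL repopulation.

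In GLOBAL repopulation, all 8 members passed the limit and none was called, where 0% of the 16651 genes tested were called by limma. The study's own analysis reported a few differentially expressed genes between these groups, so the 0% holds for the test used here. At an unadjusted p under 0.05 stood 3 of 8 members and 1504 of 16651 genes. Mean levels of 7 members were below control and that of *Cd209a* was above it, with a median fold change of -0.58 against 0.01 over all genes. *Mrc1* was at 2.499, 1.89 and 2.001 FPKM after GLOBAL repopulation and at 5.26, 4.35, 4.14 and 2.79 FPKM in control cells, which is 51.5% ± 7.84 of the control mean (-0.70, SE 0.22, adjusted p = 0.410). *Ms4a7* was at 2.36, 1.78 and 1.37 FPKM against 3.14, 6.76, 4.86 and 3.51 FPKM (-0.94, SE 0.26, adjusted p = 0.335), and *Cbr2* at 2.17, 4.56 and 0.948 FPKM against 7.50, 4.88, 4.84 and 9.28 FPKM (-1.19, SE 0.34, adjusted p = 0.355). *Cd163* was at 0.904, 0.746 and 0.646 FPKM against 1.31, 1.82, 1.61 and 1.01 FPKM (-0.46, adjusted p = 0.559). In these 4 of 8 members all repopulation libraries lay below all controls, as in 4.14% of genes, and none of the 4 differences passed the adjustment. *Cd163* passed the limit through the control libraries alone, so its lack of overlap is a description.

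*Pf4* was at 10.7, 9.18 and 9.87 FPKM against 9.52, 20.04, 16.2 and 9.45 FPKM, *F13a1* at 3.20 to 12.4 FPKM against 5.19 to 27.2 FPKM and *Dab2* at 3.41 to 3.86 FPKM against 3.61 to 5.28 FPKM, and all 3 overlapped (adjusted p = 0.669, 0.675 and 0.736). *Cd209a* was at 7.21, 8.40 and 8.91 FPKM against 3.97, 6.41, 9.22 and 4.58 FPKM, within the control range (0.43, adjusted p = 0.621). The summed monocyte list (158 to 435 FPKM against 222 to 1134 FPKM in control) and neutrophil list (1284 to 4668 against 2159 to 23181 FPKM) overlapped between the groups, and control replicate 1, the highest in both lists, was also the highest in *F13a1*. The platelet list, with 5 of 8 genes listed, did not overlap (62.1 to 70.2 FPKM after repopulation and 37.2 to 61.4 FPKM in control). The part of these lists in the levels of *F13a1* and *Pf4* was not tested.

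**Figure D4:**
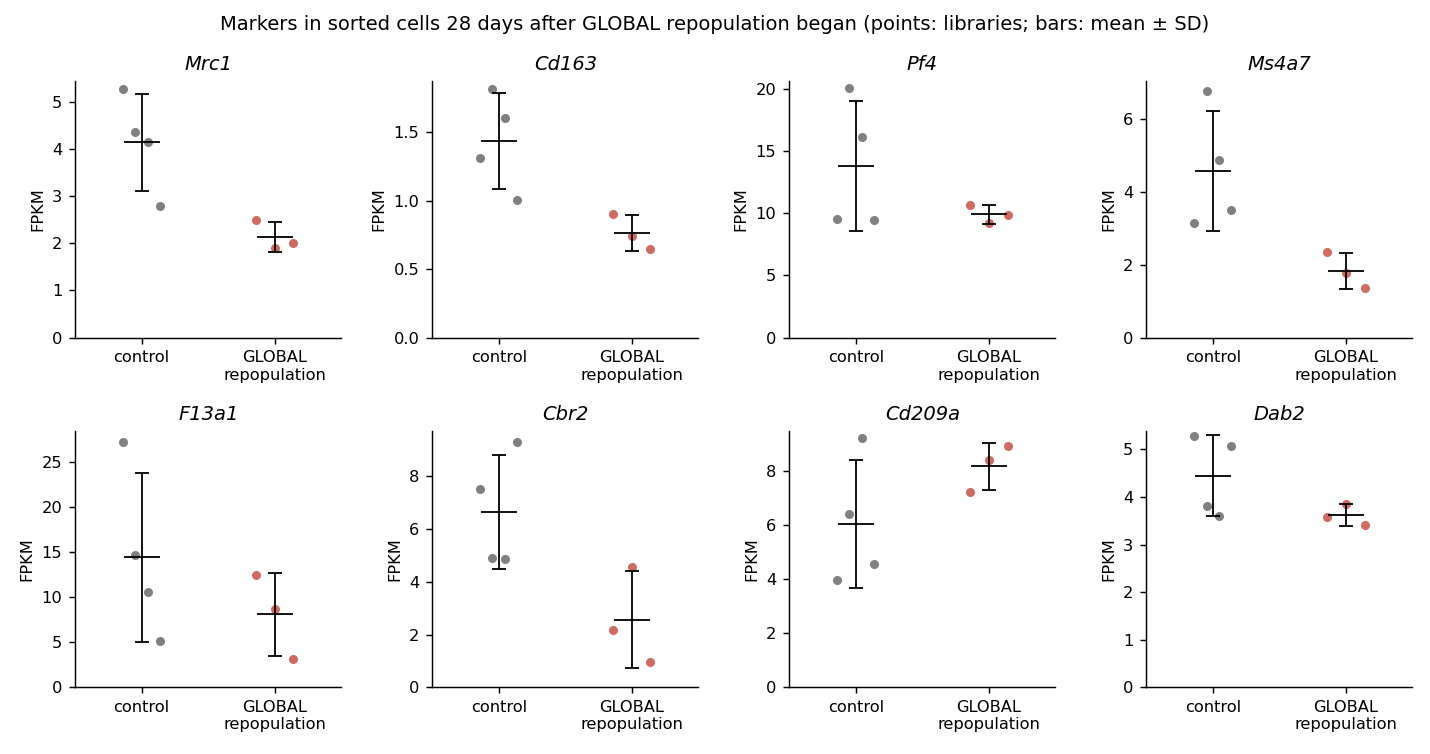
FPKM of the 8 members in each sorted library of control (n = 4) and GLOBAL repopulation (n = 3) cells (vertical axes, 1 panel a gene), with points for libraries and bars for mean and SD. *Mrc1*, *Cd163*, *Ms4a7* and *Cbr2* did not overlap between the groups, with *Mrc1* at 1.89 to 2.499 FPKM against 2.79 to 5.26 FPKM, and *Cd209a* at 7.21 to 8.91 FPKM lay within its control range of 3.97 to 9.22 FPKM.

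The order of the members by level differed between tissue and sorted cells. FPKM is per length, so levels can be set side by side within a table. In control SVZ the mean order was *Dab2* (3.47 FPKM, with 1 library far above), *Pf4* (2.01), *Cd163* (1.28), *Cbr2* (1.18), *Mrc1* (0.616) and *F13a1* (0.499), where neighbours overlapped in their libraries except for *Cbr2* and *Mrc1*. In sorted control cells at 0 hr it was *Pf4* (32.8 FPKM), *Cd209a* (26.7), *Ms4a7* (19.1), *F13a1* (16.8), *Mrc1* (11.1), *Cbr2* (10.9), *Dab2* (8.75) and *Cd163* (1.09), and of these neighbours only *Dab2* and *Cd163* did not overlap. At 6 hr after LPS, *F13a1* (53.5 FPKM) and *Dab2* (46.4) led in control cells, and the other 6 members were at means of 5.93 FPKM or less.

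The members did not move as 1 group from library to library. After the mean of each group was taken out on log2(FPKM + 1), the 21 pairs of the 7 members over the 24 sorted WM libraries had Pearson r from -0.17 to 0.75, with a median of 0.17 and 13 pairs above 0. The highest were *Mrc1* with *Cd209a* (0.75), *F13a1* with *Dab2* (0.68) and *Ms4a7* with *Cbr2* (0.66). Over the 15 SVZ libraries the 6 pairs ran from -0.55 to 0.59, with a median of 0.08. Points in these correlations share their library and its depth, and no p is given.

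The genes whose level followed each member most closely, out of all genes tested, were found in the same way. In the sorted libraries, *Cd209a* was closest to the MHC class II genes *H2-Eb1* (r = 0.92, and 0.88 without the 2 libraries of *Cd209a* farthest from their group means), *H2-Aa* (0.87, and 0.82) and *H2-Ab1* (0.77, and 0.62). The second value of each pair below is again r without the 2 libraries of that member farthest from their group means. *F13a1* was closest to *Xdh* (0.88, 0.82), *Ifitm3* (0.88, 0.85) and *Zbp1* (0.87, 0.86), of which the last 2 are known as interferon-induced genes. *Mrc1* was closest to *Bzw1* (0.81, 0.63), *Tnpo3* (0.81, 0.84) and *Mrpl52* (0.79, 0.84). *Dab2* was closest to *AB124611* (0.81, 0.72), *Adssl1* (0.80, 0.58) and *Pgd* (0.79, 0.67), and *Cbr2* to *Zfp385c* (0.79, 0.65), *Zfp407* (0.78, 0.69) and *Degs2* (0.74, 0.76). *Ms4a7* was closest to *Acp5* (0.80, 0.50), *Olfr110* (0.70, 0.36) and *Avpi1* (0.68, 0.44), so all 3 depended on WM repopulation replicate 2 and control replicate 1 at 0 hr. *Pf4* was closest to *Napepld* (0.76, 0.62), *Dusp16* (0.76, 0.78) and *Traf3ip2* (0.74, 0.88).

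In the SVZ, *Cd163* was closest to *Syndig1l* (0.95, and 0.92 without the 2 farthest libraries), *Tmem200b* (0.93, 0.86) and *Itpka* (0.93, 0.84). *Itpka* encodes a kinase of neurons, and *Syndig1l* was at 33.6 to 113 FPKM in these libraries, where *Cd163* was at 0.722 to 1.88 FPKM. *Dab2* was closest to *Sostdc1* (0.98), *Trpm3* (0.98) and *Rdh5* (0.97), and *Sostdc1* and *Trpm3* are known for the choroid plexus epithelium. *Sostdc1* was at 152 FPKM in control replicate 1 and at 1.38 to 3.40 FPKM in the other 14 SVZ libraries, and without this library and control replicate 3 the r values were 0.80, 0.73 and 0.60. *Pf4* was closest to *Thbs2* (0.88, 0.85), *Aph1b* (0.87, 0.85) and *Colec12* (0.83, 0.80), and *Cbr2* to *Dhps* (0.86, 0.76), *Slc36a1* (0.85, 0.71) and *Cryz* (0.85, 0.73).

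**Figure D5:**
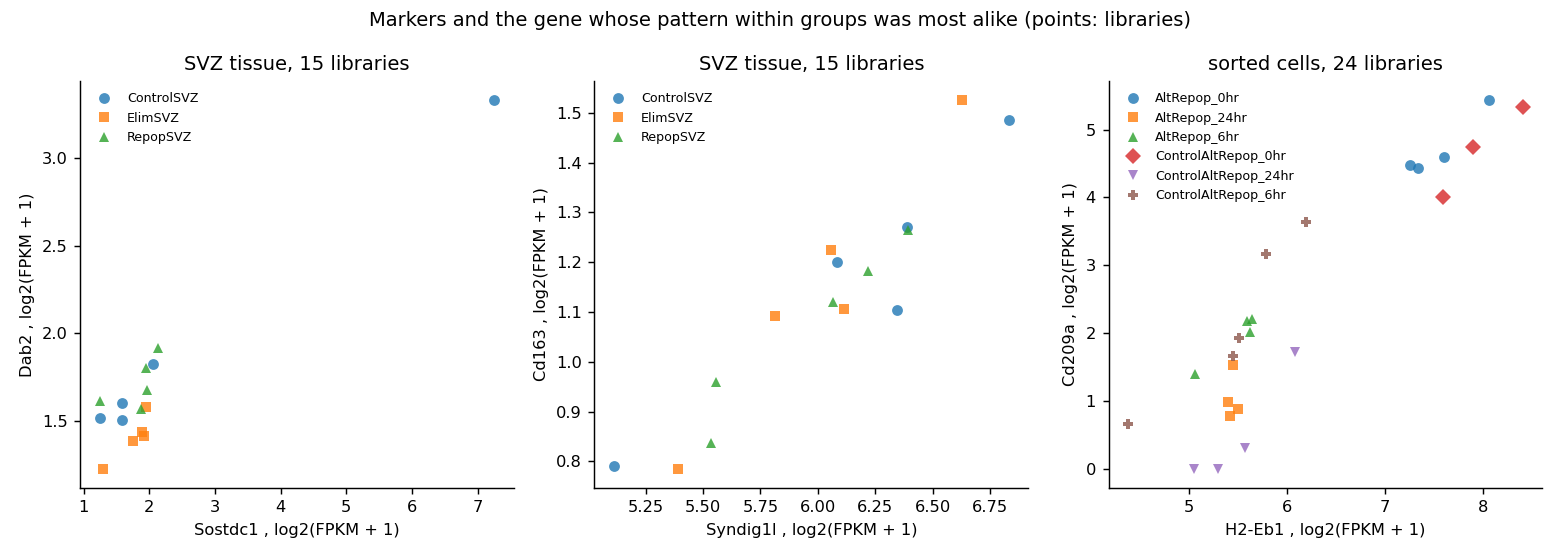
Level of 3 members (vertical axes) against their nearest gene (horizontal axes) on log2(FPKM + 1), each point 1 library coloured by group, for *Dab2* and *Sostdc1* and *Cd163* and *Syndig1l* in the SVZ (15 libraries) and *Cd209a* and *H2-Eb1* in sorted WM cells (24 libraries). With group means taken out, r was 0.98, 0.95 and 0.92, and in the panel of *Dab2* the control library at 9.09 FPKM lay far from the other 14.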

How the data were processed

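FPKM values per gene were made by the authors, who per the labels and methods aligned reads with STAR to mm10, counted them with featureCounts and normalised them with edgeR and limma, and were deposited as 1 table for each experiment. The methods describe a Smart-seq2 library with Nextera tagmentation, whereas the labels describe a commercial paired-end library, so the kit behind each table is uncertain. Members were matched by symbol and Entrez identifier. The members, the marker lists and the motifs were chosen with earlier results of these data known. The rule for named genes took all 8 members, the called genes of each list in comparisons that had a called member (at most 5 a list), the highest-level genes otherwise, and the 3 genes nearest to each member. Not every list gene under this rule is named, and *Hpgd* and *Ms4a6d* in sorted cells and *Cd209f* and *Pecam1* at 0 hr and *Cd36* at 6 hr were chosen after their values were seen.

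Groups came from the sample labels. Values were tested as log2(FPKM + 1) with limma 3.58.1 in R 4.3.3 (lmFit and eBayes with a variance trend, two-sided), 1 fit for each table with all its groups, over genes of at least 1 FPKM in at least 3 libraries, with Benjamini-Hochberg adjustment over the 14151, 12684 and 16651 genes tested in the SVZ, WM and GLOBAL tables. Tables were normalised separately, so tests ran only within a table. Since the source of each replicate is not fully given in the labels, p-values measure the spread between libraries. Whole reads were recovered for 100% of genes in each table (tolerance 0.02 reads), and 70.0% of read numbers were even in the SVZ, 50.0% in the WM and 85.5% in the GLOBAL table, so both mates of a pair may count in the SVZ and GLOBAL tables. A floor of 3 reads covers counting error only. In simulated data, 199 of 200 changed genes were recovered with 19 false calls in the SVZ design (14000 genes), 197 of 200 with 10 false calls in the WM design at 0 hr (12364 genes) and 175 of 195 with 10 false calls in the GLOBAL design (15981 genes). The changed genes had a mean log2(FPKM + 1) over 1. Each was moved up or down by the same fold change, larger than that of any SVZ member on the same scale. Recovery of lower genes or of smaller changes was not simulated. Correlations used Pearson r after group means were subtracted (Python 3.11.15, NumPy 2.4.6, pandas 2.3.3), and figures matplotlib 3.10.9. Alternatives were a pseudocount of 0.1, no expression limit, quantile normalisation, no variance trend, only the groups compared, the replicate number as a block, and leaving out each library.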

Additional observations from a re-analysis of the deposited data

Results flagged for a closer look

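A sample far from the others of its group was looked for with Dixon's test in 66 groups of a member's values, and 6 stood out, where chance flags about 1 in 20 groups. In the SVZ these were *Dab2* in control replicate 1 (9.09 FPKM, next highest 2.53 FPKM) and *Cbr2* in PLX3397 replicate 5 (0.356 FPKM, next 0.102 FPKM). In WM repopulation cells at 0 hr, replicate 2 stood out for *Ms4a7* (19.1 FPKM, next 5.34 FPKM) and for *Cd209a* (42.5 FPKM, next 23.1 FPKM). At 24 hr after LPS, *Mrc1* stood out in WM repopulation replicate 1 (1.67 FPKM, next 0.950 FPKM) and *Cd209a* in control replicate 3 (2.30 FPKM, next 0.241 FPKM).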

How the results depend on the processing

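Of 13 counts of called members, those for the LPS responses other than that of WM repopulation cells at 24 hr, the differences in response, GLOBAL repopulation, recovery against PLX3397 and WM repopulation at 6 hr stayed the same under the alternatives run. For WM repopulation cells at 24 hr against 0 hr the count of 3 became 4 with only the groups compared and 3 to 4 with 1 library left out. After PLX3397 in the SVZ the count of 1 became 0 with a pseudocount of 0.1, with quantile normalisation, with only the groups compared and with the replicate number as a block, and 4 without the expression limit. It ran from 0 to 2 when 1 library was left out, with *Cbr2* and *Pf4* called without control replicate 5 or PLX3397 replicate 5. After recovery the count of 0 became 2 without the limit and 0 to 1 with 1 library left out, where *Pf4* passed without control replicate 5. For WM repopulation at 0 hr the count of 0 became 0 to 1 (*Mrc1* without control replicate 3, *Ms4a7* without WM repopulation replicate 2). At 24 hr the count of 1 became 2 with only the groups compared (*Pf4*, adjusted p = 0.0160 by limma) and 0 to 1 with 1 library left out, where *Mrc1* was lost without control replicate 3. The call of *F13a1* after recovery was lost with quantile normalisation (adjusted p = 0.116), with only the groups compared (0.178), with the block (0.0756) and in 7 of 10 fits that left out 1 library (up to 0.0982). *Pf4* in WM repopulation cells at 24 hr against 0 hr passed with only the groups compared (limma adjusted p = 0.00602). *Cbr2* passed in the same comparison without replicate 2 at 24 hr (limma adjusted p = 0.0478). With only the SVZ control and PLX3397 groups compared, *Cbr2* reached 1 FPKM in 2 libraries, fell under the limit and was not tested. The cause of the other changes was not tested.

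The labels do not say whether equal replicate numbers mark a pair. Same-numbered libraries deviated together with r over 0.1 in 5 of 15 SVZ pairs, 7 of 55 WM pairs and 2 of 3 GLOBAL pairs. Differently numbered libraries did so in 14 of 60, 18 of 184 and 0 of 9 pairs. Median r for same and different numbers was 0.054 and -0.007 in the SVZ, -0.001 and -0.004 in the WM and 0.10 and -0.041 in the GLOBAL experiment. Whether the libraries were paired was therefore not settled. With the replicate block *Cbr2* and *F13a1* lost the calls named above, and the block turned the sign of uncalled values of *Ms4a7* (-0.025) and *F13a1* (0.0017) in WM repopulation at 6 hr and of the difference in response of *Pf4* at 6 hr (-0.19). Quantile normalisation turned *Cd163* after PLX3397 (0.0094), *Pf4* between recovery and PLX3397 (-0.022) and *Ms4a7* in WM repopulation at 6 hr (-0.0095).

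With 1 library left out, 855 fold changes kept their sign and side of the threshold, 14 lost a call, 7 gained one and 36 changed sign. Signs turned, for values that were not called, in the SVZ for *Cd163* after PLX3397 (-0.12 to 0.067), *Dab2* after recovery (-0.35 to 0.10, above 0 without control replicate 1), and *Cd163* (-0.16 to 0.021) and *Pf4* (-0.066 to 0.21) between recovery and PLX3397. In WM repopulation against control they turned for *Cd209a* at 0 hr (-0.31 to 0.36), *Ms4a7* (-0.090 to 0.088), *F13a1* (-0.23 to 0.035) and *Cd209a* (-0.65 to 0.094) at 6 hr and *Dab2* at 24 hr (-0.057 to 0.28). At 24 hr against 0 hr they turned for *Ms4a7* in control cells (-0.72 to 0.37) and in WM repopulation cells (-0.31 to 0.41), where *Cd163* (-0.10 to 0.096) turned as well. Differences in response turned at 6 hr for *Pf4* (-0.13 to 0.68) and *Cd209a* (-0.69 to 0.054) and at 24 hr for *Mrc1* (-0.54 to 0.20), *Ms4a7* (-0.43 to 0.66) and *Cbr2* (-0.22 to 0.73). Depth limits *Mrc1*, *F13a1*, *Cbr2* and *Pf4* in the SVZ, where a library after PLX3397 held 0 to 6 reads of each.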
